A study of Rattus norvegicus with 8 samples.

Results

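The cytochrome P450 enzymes of lipids, sterols, bile acids, steroid hormones, retinoic acid and vitamin D were examined in cells captured by laser microdissection (LMD) from regenerating rat livers. All array probes whose gene name begins with Cyp4, Cyp7, Cyp8 or a family number of 2 digits followed by a letter were taken, which gave 34 genes on 44 of the 45598 probes. Of these, 23 genes had a probe that passed the filter on dim signals and were tested, and 11 did not. Cyp51, the sterol demethylase of cholesterol synthesis, has no letter after its number and was counted among the genes of sterol synthesis instead.

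All samples came from livers of F344 rats whose hepatocytes had been blocked with retrorsine and stimulated by partial hepatectomy (Ret/PH). The 3 control SHPC samples were clusters of small hepatocyte-like progenitor cells cut from livers without transplanted cells. The 3 BM-MC SHPC samples were SHPC clusters from livers that had received bone marrow mesenchymal cells (BM-MCs) through the spleen, and the 2 MH samples were mature hepatocytes (MHs) from control livers. Which animal each sample came from is given by neither the labels nor the methods. All tests below therefore rest on the spread between captured samples. Part of that spread may be technical, and p-values are too small where samples share an animal. The labels call the strain DPPIV+ and the methods describe female DPPIV- recipients of DPPIV+ donor cells, which does not alter the groups used here. The age of the recipient rats was not given in the sources used here.

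RNA was hybridised to 1-colour Agilent arrays, and each value is a log2 signal with the 75th percentile of the array subtracted, so that 0 is that percentile and 1 unit is a doubling. Each array had 57.0% to 61.5% of its spots well above background. The 8 arrays lay on 1 slide in 2 sets, with both MH samples and control SHPC replicates 1 and 2 in set 1, and control SHPC replicate 3 with all BM-MC SHPC samples in set 2. All 8 hepatocyte markers examined were above background, with a summed linear signal, in units of the 75th percentile of the array, of 851 to 869 in MHs, 882 to 1017 in control SHPCs and 762 to 972 in BM-MC SHPCs. In captured tissue, fewer cells of a type and less RNA per cell cannot be told apart. Kupffer cell markers summed to 44.2 to 51.2 in MHs, 24.3 to 35.7 in control SHPCs and 30.8 to 43.9 in BM-MC SHPCs, with 8 of 8 above background. Their part in the P450 values was not tested.

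Cytochrome P450s are haem enzymes that insert an oxygen atom into their substrate, with electrons passed on by a reductase. In the liver, bile acid synthesis begins either with Cyp7a1, the rate-limiting enzyme of the classical pathway, or with Cyp27a1, the mitochondrial enzyme that hydroxylates the sterol side chain. The Cyp4 family hydroxylates the far end of fatty acids and eicosanoids, and several Cyp4a genes are known targets of the fatty acid receptor PPAR-alpha. Cyp26 enzymes degrade retinoic acid, Cyp24a1 and Cyp27b1 inactivate and activate vitamin D, and Cyp11, Cyp17, Cyp19 and Cyp21 enzymes make steroid hormones, mainly in the adrenal gland and gonads.

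The probes identify which stretch of each transcript was measured, and the first 30 of their 60 bases are shown for the genes on which the results turn and for the genes whose probes are compared. Capitals mark the 24 bases that the stretches of both Cyp4f6 probes have in common, and the other stretches carry no capitals.
Cyp7a1: tgttcttagaacaagtttgatgactctcaa
Cyp27a1: acaatctctactgagcagcacccatttaag
Cyp26a1: tgtggacaatcttcctgcaagattcaccca
Cyp39a1, brighter probe: atgtctttgcgatatccctgggagacctgc
Cyp39a1, dimmer probe: gacttgaagaagcttcttctaattaagtgg
Cyp4a8, brighter probe: tggcccggaaaccaggaaagggaataacac
Cyp4a8, dimmer probe: aaatggaagcagcttatctgataaggacct
Cyp4f6, brighter probe: agctgcCTTGGGACCTCCTCGCCCACCCTC
Cyp4f6, dimmer probe: CTTGGGACCTCCTCGCCCACCCTCctacct
In the array's annotation, for which the file headers name the rn4 build, the Cyp7a1 probe lies on the minus strand at chr5:19707410-19707469. The Cyp27a1 probe lies on the plus strand at chr9:74068548-74068607, and the Cyp26a1 probe on the minus strand at chr1:241945651-241945710. Whether these positions are in coding or untranslated exons is not stated by that annotation. Where a gene had several tested probes, the one with the higher mean signal stood for the gene.

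No gene of these families passed the adjusted threshold of 0.05 in any comparison. Between MHs and control SHPCs, limma with Benjamini-Hochberg adjustment over 23111 probes called 0 of the 23 genes higher and 0 lower, while 0.216% of all probes were called higher and 0.917% lower. At an unadjusted limma p under 0.05, 5 genes were higher in MHs, namely Cyp7a1, Cyp27a1, Cyp26a1, Cyp26b1 and Cyp27b1, against 11% of all probes, and Cyp17a1 alone was lower, against 8.21%. Between BM-MC SHPCs and control SHPCs, 0 genes passed in either direction, with 0.0216% of all probes called higher and 0% lower. There, Cyp21a1 and Cyp26b1 were higher at an unadjusted limma p under 0.05, against 10.7% of all probes, and 0 genes were lower, against 5.92%. Between BM-MC SHPCs and MHs, 0 genes passed, with 0.32% of all probes called higher and 0.0173% lower. At an unadjusted limma p under 0.05 Cyp4f17 was higher, against 7.33% of all probes, and Cyp7a1 and Cyp27a1 were lower, against 5.95%. The methods' t-test also called 0 genes after adjustment in each comparison, and at an unadjusted p under 0.05 it gave 3, 1 and 1 genes higher and 0 lower in the 3 comparisons as ordered here.

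**Figure D1:**
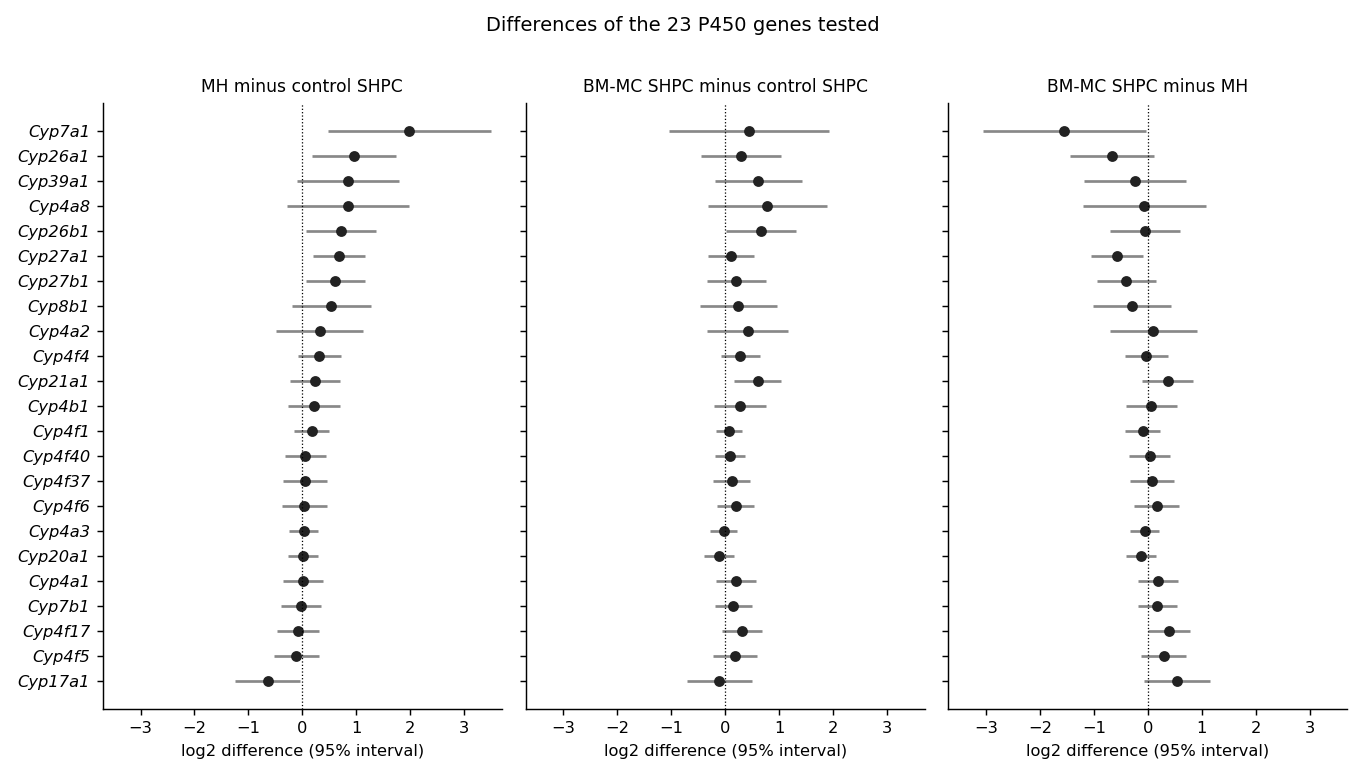
Log2 differences (x axis) of the 23 P450 genes tested (y axis, ordered by the difference between MHs and control SHPCs), with 95% intervals from limma, in 3 panels for the 3 comparisons. Cyp7a1 has the largest difference in the left panel, 1.99 with an interval from 0.48 to 3.50, and in the right panel, -1.55 with an interval from -3.06 to -0.041.

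Cyp7a1 was the member that varied most, with a range of 3.28 log2 units over the 8 samples. Its log2 signal was 0.43 and -0.078 in the 2 MH samples, -1.98, -1.94 and -1.51 in control SHPC replicates 1 to 3, and -0.82, -0.44 and -2.85 in BM-MC SHPC replicates 1 to 3. Both MH samples lay above all SHPC samples. BM-MC SHPC replicates 1 and 2 lay between the MHs and the controls, whereas replicate 3 was the lowest of all samples. The means were 0.18 ± 0.36 (SD, n = 2) in MHs, -1.81 ± 0.26 (SD, n = 3) in control SHPCs and -1.37 ± 1.30 (SD, n = 3) in BM-MC SHPCs.

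The Cyp7a1 level was 1.99 log2 units higher in MHs than in control SHPCs, a 3.97-fold difference (standard error 0.65, limma adjusted p = 0.179). It passed where the 2 groups were fitted alone (limma adjusted p = 0.0289), and in the fit without BM-MC SHPC replicate 3 (limma adjusted p = 0.0140), both of which leave the difference itself as it was and change only the estimated spread. Within set 1 of the slide the difference was 2.14 (limma adjusted p = 0.229). For BM-MC SHPCs against MHs it was -1.55 (standard error 0.65, limma adjusted p = 0.368), and -0.81 without BM-MC SHPC replicate 3. The difference of BM-MC SHPCs from controls was 0.44 (standard error 0.61, limma adjusted p = 0.737, interval from -1.04 to 1.92), which became 1.18 without BM-MC SHPC replicate 3 (limma adjusted p = 0.0979), 0.16 without BM-MC SHPC replicate 1 and -0.028 without replicate 2. Leaving out 1 sample thus turned the sign of that comparison.

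**Figure D2:**
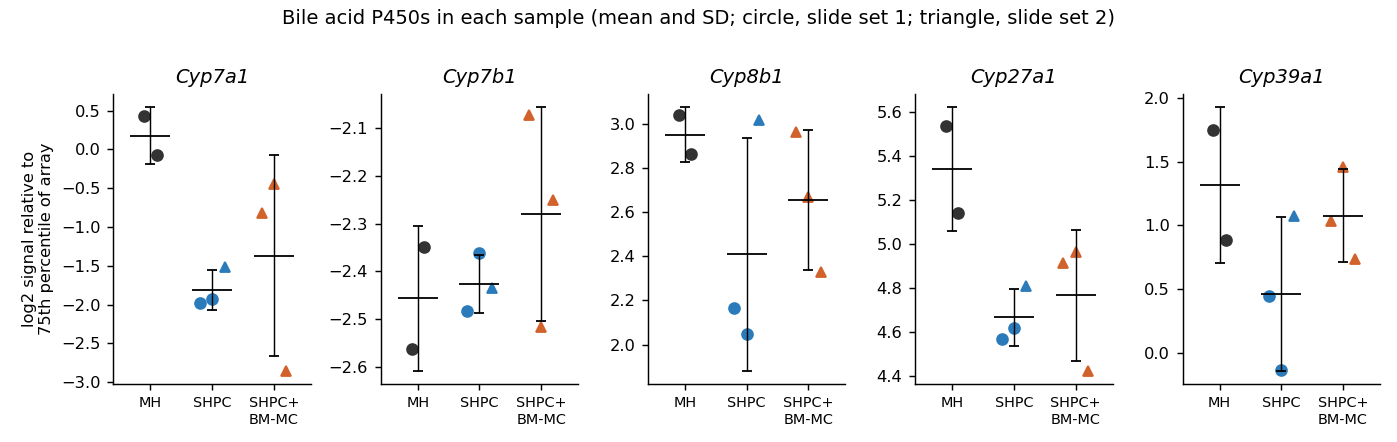
Log2 signal relative to the 75th percentile of the array (y axis, a separate range in each panel) of 5 bile acid P450s in MHs (n = 2), control SHPCs (n = 3) and BM-MC SHPCs (n = 3). Points are samples, circles for slide set 1 and triangles for slide set 2, and bars are mean and SD. The Cyp7a1 value of BM-MC SHPC replicate 3, -2.85, lies below all other samples.

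Cyp27a1, which also acts in vitamin D hydroxylation, had a log2 signal of 5.54 and 5.14 in MHs, 4.57, 4.62 and 4.81 in control SHPCs, and 4.92, 4.96 and 4.42 in BM-MC SHPCs. Both MH samples lay above every SHPC sample, and BM-MC SHPC replicate 3 was again the lowest of all 8. The difference between MHs and controls was 0.67 (standard error 0.21, limma adjusted p = 0.163), a 1.60-fold higher level, and 0.75 within slide set 1. BM-MC SHPCs differed from MHs by -0.57 (standard error 0.21, limma adjusted p = 0.333), and by -0.37 without MH replicate 1. Against controls, BM-MC SHPCs were at 0.10 (interval from -0.32 to 0.53), and -0.043 within slide set 2, which holds control SHPC replicate 3 as its only control. It ranged from 0.0041 without BM-MC SHPC replicate 2 to 0.27 without BM-MC SHPC replicate 3.

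Cyp8b1, the enzyme that sets the share of cholic acid among the bile acids, was at 3.04 and 2.86 in MHs, 2.16, 2.05 and 3.01 in control SHPCs, and 2.96, 2.67 and 2.33 in BM-MC SHPCs. Control SHPC replicate 3 lay with the MHs, apart from the other controls. The log2 difference between MHs and controls was 0.54 (standard error 0.31, limma adjusted p = 0.377), and 0.84 within slide set 1, where both MHs exceeded both controls. That of BM-MC SHPCs from controls was 0.25 over all 6 samples and -0.36 within slide set 2, and ranged from 0.065 without control SHPC replicate 2 to 0.55 without control SHPC replicate 3. For BM-MC SHPCs against MHs it was -0.30 (standard error 0.31).

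Cyp39a1, an oxysterol hydroxylase of the bile acid pathway, was at 1.75 and 0.88 in MHs, 0.45, -0.13 and 1.07 in control SHPCs, and 1.03, 1.46 and 0.74 in BM-MC SHPCs by its brighter probe. The groups overlapped in every comparison. The log2 difference was 0.85 between MHs and controls (standard error 0.40, limma adjusted p = 0.298) and 0.62 between BM-MC SHPCs and controls (standard error 0.34, limma adjusted p = 0.394), and the latter was 0.0066 within slide set 2. With normexp background correction, which left out control SHPC replicate 2, they were 0.54 and 0.33. With the main background setting but without that sample, they were 0.55 and 0.32. The first ranged from 0.42 without MH replicate 1 to 1.28 without MH replicate 2, and the latter from 0.32 without control SHPC replicate 2 to 0.92 without replicate 3. The dimmer Cyp39a1 probe, which lies at chr9:12950276-12950335 while the first lies at chr9:12926816-12926875, both on the minus strand, gave 0.10 and 0.082 for these 2 comparisons, so the probes differed in the size of the change. The brighter probe gave -0.24 between BM-MC SHPCs and MHs.

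Cyp7b1, the oxysterol hydroxylase of the alternative pathway, varied less over the samples than the other bile acid P450s by the probe that stood for each gene, although the dimmer Cyp39a1 probe varied less still. Its log2 signal was -2.56 and -2.35 in MHs, -2.48, -2.36 and -2.44 in control SHPCs, and -2.07, -2.52 and -2.25 in BM-MC SHPCs, with all groups overlapping. The differences were -0.030 between MHs and controls (interval from -0.40 to 0.34), 0.15 between BM-MC SHPCs and controls (interval from -0.20 to 0.49) and 0.18 between BM-MC SHPCs and MHs (interval from -0.19 to 0.54). That of BM-MC SHPCs from controls ranged from 0.043 without BM-MC SHPC replicate 1 to 0.26 without BM-MC SHPC replicate 2. Cyp46a1, the cholesterol hydroxylase known from the brain, was not well above background on any of the 7 arrays with complete marks.

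Of the other genes of bile acid synthesis, from a list of 12 that were all tested, 0 passed in any comparison. Their median log2 difference was 0.078 in MHs and 0.028 in BM-MC SHPCs against controls, and 2 genes and 1 gene were higher at an unadjusted limma p under 0.05, against 11% and 10.7% of all probes. Of 8 regulators of bile acid synthesis 0 passed, with medians of 0.093 and 0.025 and 1 gene higher at an unadjusted limma p under 0.05 in each of these comparisons. Of 21 genes of sterol synthesis, the pathway that makes the cholesterol from which bile acids derive, 0 passed. The median of this list was 0.20 in MHs against controls, with 5 of the 21 genes higher and 0 lower at an unadjusted limma p under 0.05, beside 11% and 8.21% of all probes. It was -0.058 in BM-MC SHPCs against controls, with 1 gene higher and 2 lower, beside 10.7% and 5.92%. In BM-MC SHPCs against MHs it was -0.19, with 0 genes higher and 8 lower, beside 7.33% and 5.95%.

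Markers of position in the liver lobule were measured in the same samples. Between MHs and control SHPCs, all 9 pericentral hepatocyte genes tested had a log2 difference above 0, with a median of 1.13, and all 10 periportal genes had one below 0, with a median of -0.53, although 0 genes of either list passed after adjustment. At an unadjusted limma p under 0.05, 8 of the 9 were higher, against 11% of all probes, and 5 of the 10 lower, against 8.21%. In BM-MC SHPCs against MHs, 0 of the 9 pericentral genes were above 0, with a median of -0.65 and 4 lower at an unadjusted limma p under 0.05, against 5.95% of all probes. There all 10 periportal genes were above 0, with a median of 0.59 and 5 higher, against 7.33%. In BM-MC SHPCs against controls, 8 of the 9 pericentral genes were above 0, with a median of 0.37, and 5 of the 10 periportal genes, with a median of -0.038, and 0 genes of either list had an unadjusted limma p under 0.05. Cyp7a1 is known from pericentral hepatocytes. The part of lobular position in its value was not tested.

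Among the fatty acid hydroxylases, Cyp4a1, Cyp4a3 and Cyp4f1 varied little between samples. Cyp4a1, the main omega-hydroxylase induced through PPAR-alpha, was at 5.12 and 5.18 in MHs, 5.06, 5.03 and 5.33 in control SHPCs, and 5.25, 5.56 and 5.21 in BM-MC SHPCs. Cyp4a3 was at 3.98 and 4.14, at 4.08, 3.96 and 4.05, and at 4.06, 3.95 and 3.99 in the same order by its brighter probe. This was a range of 0.19 over the 8 samples, the smallest of the 23 genes by the probe that stood for each. Cyp4f1, a leukotriene and fatty acid hydroxylase, was at 5.25 and 4.87, at 4.87, 4.82 and 4.97, and at 4.91, 4.95 and 5.02. Over the 8 samples Cyp4a1 ranged over 0.53 and Cyp4f1 over 0.43. The dimmer tested Cyp4a3 probe varied more, from 1.96 to 2.38. Its difference between MHs and controls was -0.023, beside 0.029 by the brighter probe.

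Cyp4a8, another omega-hydroxylase, was at 3.87 and 4.31 in MHs, 2.54, 2.87 and 4.31 in control SHPCs, and 3.73, 4.19 and 4.15 in BM-MC SHPCs. Control SHPC replicates 1 and 2 lay below all other samples, and control SHPC replicate 3 equalled the highest MH sample. The log2 difference was 0.85 between MHs and controls (standard error 0.49, limma adjusted p = 0.373) and 1.39 within slide set 1 (limma adjusted p = 0.0581). For BM-MC SHPCs against controls it was 0.78 (standard error 0.46, limma adjusted p = 0.419). Without control SHPC replicate 1 the differences were 0.50 and 0.43. Without control SHPC replicate 3 the latter became 1.32 and passed (limma adjusted p = 0.0447), whereas within slide set 2, against replicate 3 alone, it was -0.29 (limma adjusted p = 0.709). Without that array, the slide set cannot be told apart from transplantation, since control replicates 1 and 2 are in set 1 and all BM-MC SHPC samples in set 2. The dimmer tested Cyp4a8 probe gave -0.16 between MHs and controls and -0.18 between BM-MC SHPCs and controls, opposite in sign to the brighter probe, and another probe of the gene was not above background on any array with complete marks.

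**Figure D3:**
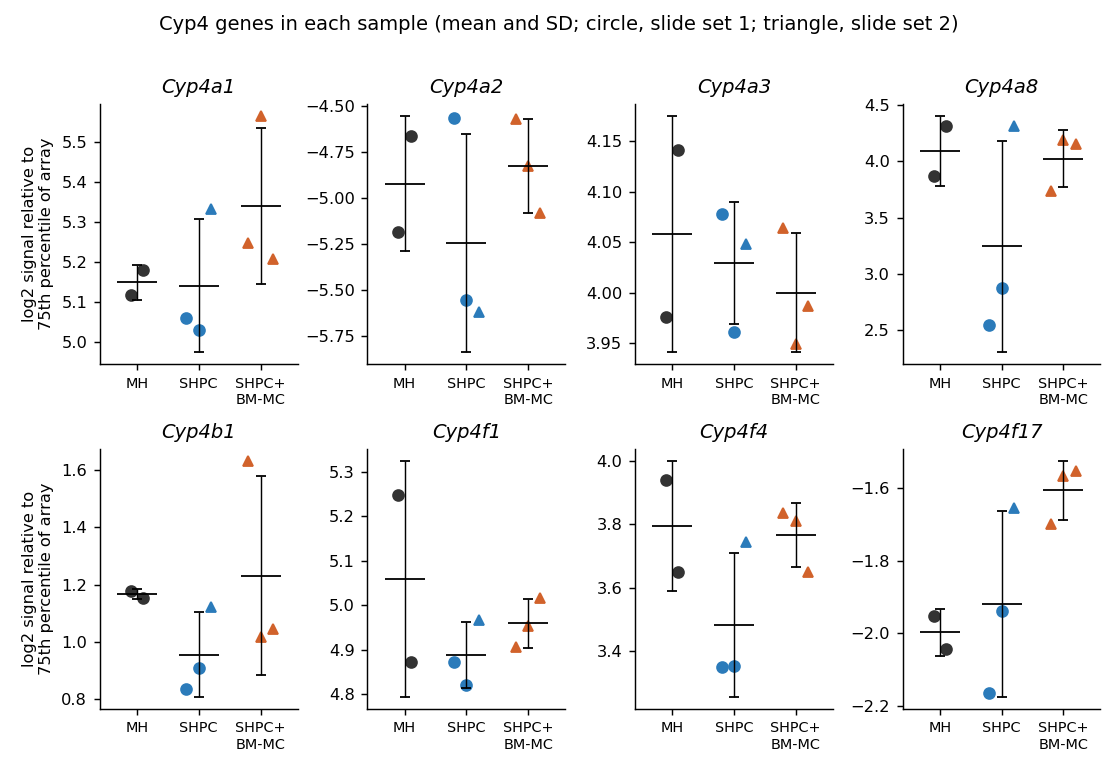
Log2 signal relative to the 75th percentile of the array (y axis, a separate range in each panel) of 8 Cyp4 genes in MHs (n = 2), control SHPCs (n = 3) and BM-MC SHPCs (n = 3). Points are samples, circles for slide set 1 and triangles for slide set 2, and bars are mean and SD. For Cyp4a8 control SHPC replicates 1 and 2, at 2.54 and 2.87, lie below the other 6 samples, and for Cyp4a3 all 8 samples lie within 0.19.

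Cyp4a2 was dim, with values of -5.18 and -4.66 in MHs, -4.56, -5.55 and -5.62 in control SHPCs, and -4.57, -4.83 and -5.08 in BM-MC SHPCs, and control SHPC replicate 3 was the 1 array with complete marks where it stayed near background. Its groups overlapped in every comparison. Cyp4a2 and Cyp4a3 are close copies of one another, so each probe may take signal from the other transcript, which was not tested. Cyp4b1, an extrahepatic hydroxylase also found in liver, was at 1.18 and 1.16 in MHs, 0.84, 0.91 and 1.12 in control SHPCs, and 1.63, 1.02 and 1.05 in BM-MC SHPCs. Both MH samples lay above every control by its brighter probe, while the difference by its dimmer probe was of the opposite sign.

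Within the Cyp4f group, Cyp4f4, an eicosanoid hydroxylase, was at 3.94 and 3.65 in MHs, 3.35, 3.35 and 3.75 in control SHPCs, and 3.84, 3.81 and 3.65 in BM-MC SHPCs. As with Cyp4a8, control SHPC replicates 1 and 2 were the lowest samples and replicate 3 lay among the others. Cyp4f17 was the member with the largest Cyp4f difference between BM-MC SHPCs and MHs, 0.39 (standard error 0.16, limma adjusted p = 0.370). Its log2 signal was -1.95 and -2.04 in MHs, -2.17, -1.94 and -1.66 in control SHPCs, and -1.70, -1.57 and -1.55 in BM-MC SHPCs. The 3 BM-MC SHPC samples and control SHPC replicate 3, all in slide set 2, were its 4 highest values. With slide sets as a block the difference from MHs was -0.0053.

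The remaining Cyp4f genes, Cyp4f5, Cyp4f6, Cyp4f37 and Cyp4f40, ranged over 0.41 to 0.54 log2 units across the 8 samples. The 7 Cyp4f genes tested had a median log2 difference of 0.049 between MHs and controls, 0.18 between BM-MC SHPCs and controls and 0.075 between BM-MC SHPCs and MHs. Between BM-MC SHPCs and controls, Cyp4f1, Cyp4f5, Cyp4f37 and Cyp4f40 fell below 0 with arrays scaled to their median, and likewise within slide set 2. The 2 Cyp4f6 probes, which share 54 of their 60 bases with an offset of 6, gave 0.036 and 0.044 between MHs and controls and 0.20 and 0.21 between BM-MC SHPCs and controls. They measure the same stretch and are not independent. The Cyp4f5 and Cyp4f37 probes are also alike over most of their length, so each may take signal from the other transcript. This was not tested, and both were counted as genes. The other Cyp4f5 probe was not above background on any array with complete marks. Of 25 genes of the PPAR-alpha pathway, 0 passed in any comparison, and their medians were 0.092 in MHs and 0.12 in BM-MC SHPCs against controls.

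Cyp26a1, the main retinoic acid hydroxylase of the liver, was at -1.27 and -1.68 in MHs, -2.42, -2.69 and -2.18 in control SHPCs, and -2.01, -1.63 and -2.78 in BM-MC SHPCs. Both MH samples lay above every control. BM-MC SHPC replicate 2 reached the MH range and replicate 3 was the lowest of all samples, as for Cyp7a1 and Cyp27a1. The difference between MHs and controls was 0.96 (standard error 0.33, limma adjusted p = 0.199), a 1.94-fold higher level, and 1.08 within slide set 1. BM-MC SHPCs differed from MHs by -0.67 (standard error 0.33, limma adjusted p = 0.429), and by -0.35 without BM-MC SHPC replicate 3.

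Cyp26b1, the second retinoic acid hydroxylase, was at -4.08 and -4.23 in MHs, -4.92, -5.38 and -4.32 in control SHPCs, and -4.15, -4.13 and -4.35 in BM-MC SHPCs. Control SHPC replicates 1 and 2 were the lowest samples. The difference was 0.72 between MHs and controls (standard error 0.28, limma adjusted p = 0.233) and 0.66 between BM-MC SHPCs and controls (standard error 0.27, limma adjusted p = 0.292). The latter was 0.11 within slide set 2, where replicate 3 is the only control. With normexp background correction the differences were 0.15 and 0.15 on the 7 complete arrays. With the main background setting but without control SHPC replicate 2, they were 0.47 and 0.41. Cyp26c1 was not above background on any array with complete marks.

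Of 18 other genes of the retinoid pathway 14 were tested, and 0 passed in any comparison. At an unadjusted limma p under 0.05, 4 of the 14 were higher and 0 lower both in MHs and in BM-MC SHPCs against controls, with medians of 0.049 and 0.086. Of all probes, 11% and 10.7% were higher and 8.21% and 5.92% lower in these comparisons.

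The promoter of Cyp26a1 is shown because its retinoic acid response element is a known feature of this gene and Cyp26a1 had the second largest difference between MHs and controls. In RefSeq sequence of the GRCr8 build, bases 130 to 11 before its start are on the plus strand at chr1:244883692-244883811, and capitals mark a direct repeat spaced by 5 bases, which reads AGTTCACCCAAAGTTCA on the opposite strand.
Cyp26a1 promoter: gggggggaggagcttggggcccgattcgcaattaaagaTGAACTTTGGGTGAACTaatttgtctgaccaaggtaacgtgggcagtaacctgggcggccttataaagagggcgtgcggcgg
The repeat, searched on both strands as a pair of AGTTCA in the same direction with any 5 bases between them, was found in 3 of 33469 promoters of 300 bases, or 0.00896%. Promoters were given for 22 of the 34 genes, and Cyp26a1 alone among them held it. The letters searched were those of the Cyp26a1 repeat itself, so that match was set by the choice. Pairs of AGGTCA spaced by 5 bases were not searched, so other retinoic acid elements may have been missed. A pair of AGGTCA with 1 base between them, a repeat of the kind bound by PPARs, was in 0 of these 22 genes and in 0.0538% of all promoters, and the pair with 3 bases between them, of the kind bound by the vitamin D receptor, in 0 and 0.0239%. CAAGGTCA, of the kind bound by LRH-1, which itself holds AGGTCA, was in the Cyp27a1 promoter and in 1.52% of all. A match of letters is not evidence of binding, and no promoter of Cyp7a1 was among those searched.

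Cyp27b1, which activates vitamin D, was dim but well above background on all 7 arrays with complete marks by its brighter probe. It was at -4.60 and -4.61 in MHs, -5.04, -5.58 and -5.04 in control SHPCs, and -4.64, -5.22 and -5.17 in BM-MC SHPCs, so that both MHs lay above all SHPC samples. The difference between MHs and controls was 0.61 (standard error 0.23, limma adjusted p = 0.229), and that between BM-MC SHPCs and MHs was -0.40 (standard error 0.23, limma adjusted p = 0.483). With normexp background correction, which left out control SHPC replicate 2, these became 0.034 and -0.068. Its other probe was not above background on any array with complete marks. Cyp24a1, which inactivates vitamin D, was likewise not above background, and 0 of the 4 other vitamin D pathway genes tested passed.

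Cyp17a1, which makes androgen precursors, was the only member lower in MHs than in every control, an arrangement that 18.7% of all probes showed. Its log2 signal was 2.66 and 2.80 in MHs, 3.19, 3.17 and 3.77 in control SHPCs, and 2.89, 3.31 and 3.62 in BM-MC SHPCs. The difference between MHs and controls was -0.64 (standard error 0.26, limma adjusted p = 0.244) and -0.45 within slide set 1. Cyp17a1 was at 0.54 in BM-MC SHPCs against MHs (standard error 0.26, limma adjusted p = 0.414). With slide sets as a block it was -0.055.

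Cyp21a1, the steroid hydroxylase of the adrenal cortex, was the only member whose BM-MC SHPC samples all lay above all controls, an arrangement that 13% of all probes showed. It was at -2.97, -2.44 and -2.51 in BM-MC SHPCs, -3.30, -3.38 and -3.05 in control SHPCs, and -3.15 and -2.86 in MHs. The difference between BM-MC SHPCs and controls was 0.60, a 1.52-fold higher level (standard error 0.18, limma adjusted p = 0.221), with 0.41 within slide set 2. It was 0.36 with normexp background correction, which left out control SHPC replicate 2, and 0.53 with the main setting without that sample. Among the steroidogenic enzymes, Cyp11a1, Cyp11b1 and Cyp19a1 were not above background on any array with complete marks. Cyp11b2 was above it in MH replicate 2 only, and Cyp11b3 in MH replicate 2 and BM-MC SHPC replicate 2. No difference is given for either gene. Of 7 other steroid hormone genes tested, 0 passed. Cyp20a1, a P450 without an established substrate, was at -1.38 and -1.47 in MHs, -1.47, -1.39 and -1.46 in control SHPCs, and -1.45, -1.52 and -1.69 in BM-MC SHPCs.

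**Figure D4:**
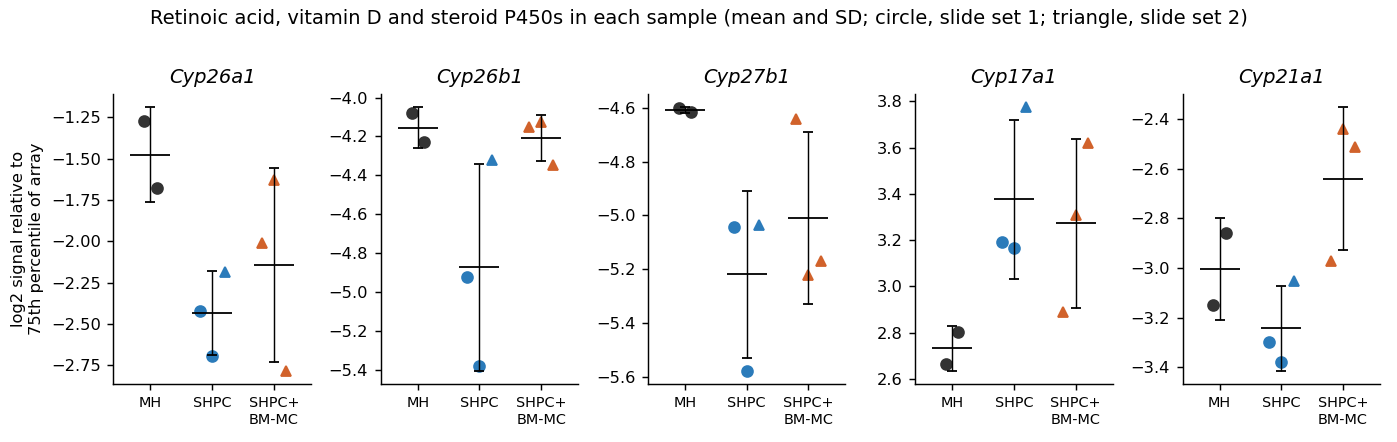
Log2 signal relative to the 75th percentile of the array (y axis, a separate range in each panel) of Cyp26a1, Cyp26b1, Cyp27b1, Cyp17a1 and Cyp21a1 in MHs (n = 2), control SHPCs (n = 3) and BM-MC SHPCs (n = 3). Points are samples, circles for slide set 1 and triangles for slide set 2, and bars are mean and SD. Both MH values of Cyp26a1, -1.27 and -1.68, lie above the controls, and both of Cyp17a1, 2.66 and 2.80, lie below them.

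Across the 23 genes, control SHPC replicates 1 and 2 stood below the other samples by their median. Control SHPC replicate 3 was the highest control in 19 of 23 genes, while it was the highest in 46.3% of all probes. BM-MC SHPC replicate 3 was the lowest of its group in 10 genes, replicate 1 in 8 and replicate 2 in 5, beside 32.6%, 39.7% and 27.8% of all probes. The median deviation of the 23 genes from their mean over all samples was -0.27 and -0.20 in control SHPC replicates 1 and 2, and lay between -0.011 and 0.15 in the other 6 samples. The same median over all probes lay between -0.038 and 0.031 in all 8.

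The log2 difference between BM-MC SHPCs and controls was above 0 in 20 of the 23 genes, or 87%, against 52.6% of all probes, with a median of 0.21 beside 0.018 over all probes. Within slide set 2 it was above 0 in 13 of 23, with a median of 0.0070. Scaling each array to its median instead moved the median of all probes to -0.17 and left 14 of 23 genes above 0, and relative to the median of all probes the members' median was 0.19 under either scaling. Between MHs and controls it was above 0 in 19 of 23 genes, or 82.6%, against 53.8% of all probes, with a median of 0.21 beside 0.032. Within slide set 1 this was 21 of 23, with a median of 0.21. Groups did not overlap in 6 genes higher in MHs, or 26.1%, against 22.7% of all probes, and in 1 gene lower, against 18.7%. In BM-MC SHPCs against MHs, 11 of 23 genes, or 47.8%, were above 0, against 50.5% of all probes. This was 4 of 23 with arrays scaled to their median, and 3 of 23 with slide sets as a block, where the median was -0.19 beside -0.054 over all probes. These groups share no slide set, so that the block rests on the controls in both sets. There the groups did not overlap in 4 genes higher, against 16% of all probes, and in 3 lower, against 16.3%. The comparisons share samples and are not independent of one another.

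**Figure D5:**
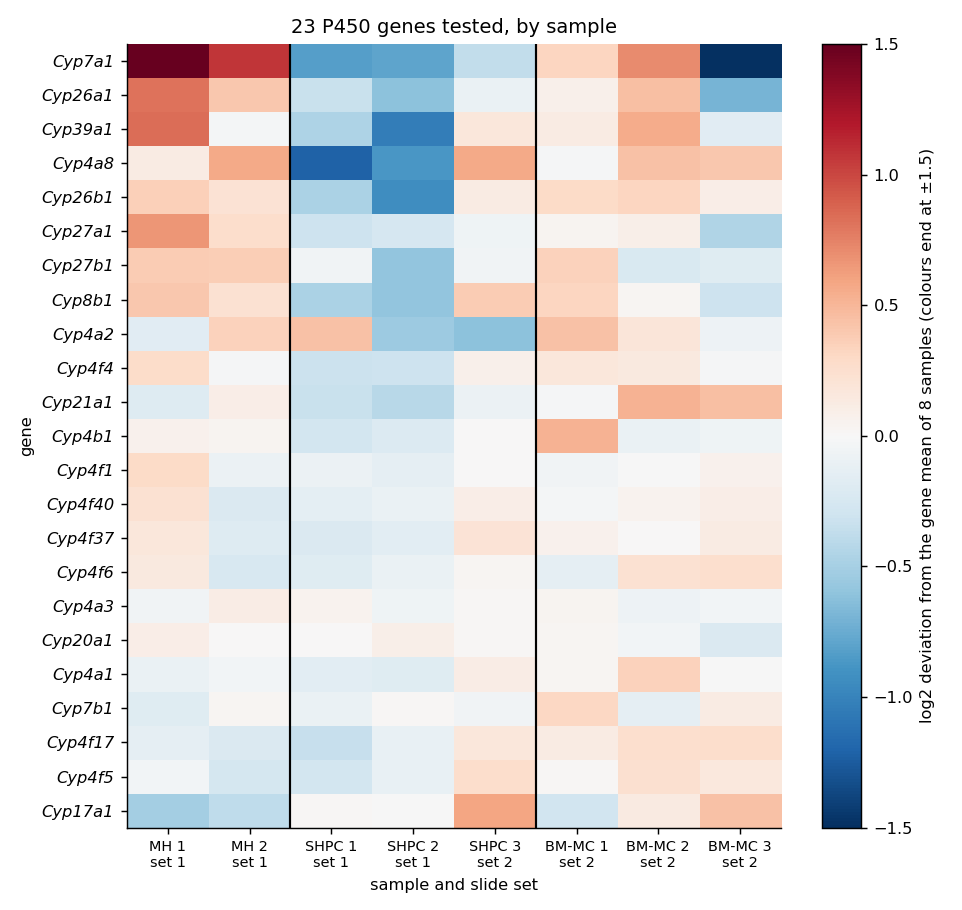
Deviation of each of the 23 P450 genes tested (rows) from its mean over the 8 samples, in log2 units (colour, ending at ±1.5), by sample and slide set (columns). Control SHPC replicates 1 and 2 are below the mean for most genes, with median deviations of -0.27 and -0.20, and BM-MC SHPC replicate 3 is the lowest sample for Cyp7a1, Cyp20a1, Cyp26a1 and Cyp27a1.

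The P450s of families 1 to 3, which mainly handle drugs and foreign compounds, were taken for comparison. Of 36 of their genes tested, Cyp2b2 alone passed, at 2.49 log2 units higher in MHs than in control SHPCs (standard error 0.37, limma adjusted p = 0.0306). At an unadjusted limma p under 0.05, 13 of the 36 were higher and 3 lower in MHs than in controls, against 11% and 8.21% of all probes. In BM-MC SHPCs against controls 3 were higher and 0 lower, against 10.7% and 5.92%. Their log2 differences were above 0 in 28 of 36 genes in MHs and in 26 of 36 in BM-MC SHPCs against controls, beside 19 and 20 of the 23 genes. Their medians were 0.32 in MHs and 0.15 in BM-MC SHPCs against controls and -0.19 between BM-MC SHPCs and MHs, beside 0.21, 0.21 and -0.030 for the 23 genes. Among 14 genes of P450 redox partners and haem synthesis 0 passed. Their medians were 0.076 in MHs and 0.016 in BM-MC SHPCs against controls, and at an unadjusted limma p under 0.05 2 genes were higher in MHs, against 11% of all probes, and 1 was lower in BM-MC SHPCs, against 5.92%.

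The other marker lists gave summed linear signals, in units of the 75th percentile of the array, as follows. Sinusoidal endothelium was at 15.2 to 18.5 in MHs, 13.4 to 15.3 in control SHPCs and 15.3 to 17.3 in BM-MC SHPCs, and bone marrow mesenchymal markers were at 14.8 to 17.0, 19.6 to 22.4 and 16.2 to 22.1. Stellate cell markers were at 7.08 to 7.49, 6.67 to 7.35 and 6.55 to 10.0. Among them Rgs5, a pericyte gene, was 1.09 log2 units higher in MHs than in control SHPCs (standard error 0.17, limma adjusted p = 0.0341). Of the 8 stellate cell genes, 3 were above 0 and 5 below in that comparison, with a median of -0.091. At an unadjusted limma p under 0.05, 2 of them were higher and 2 lower, against 11% and 8.21% of all probes. Cholangiocyte markers were at 0.312 to 0.375, 0.508 to 0.524 and 0.446 to 0.569, with Spp1 and Muc1 not above background. Granulocyte markers were at 0.418 to 1.54, 1.18 to 1.62 and 0.397 to 0.511, with Mpo, Cxcr2, Csf3r, Elane and Camp not above background. The part of these lists in the P450 values was not tested.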

How the data were processed

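The authors deposited intensity values, the scanner's processed signal of Agilent Feature Extraction 10.7 (per the labels), already background-subtracted and not scaled between arrays. Background marks came from the scanner files. Marks of control SHPC replicate 2 were left out, since its scanner file as used here held 20903 of 62976 features, and its signals came from the deposited value table. Signals were taken on the log2 scale, computed from the deposited intensity, with the 75th percentile of the array subtracted, without outlier spots, and spots of a probe were averaged. A probe was tested if marked above background on 3 or more of 7 arrays, in limma 3.58.1 (R 4.3.3) with Benjamini-Hochberg adjustment, BM-MC SHPCs against controls on 6 samples and comparisons with MHs on all 8. The number of arrays limits precision.

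Genes and related lists were chosen with earlier results of these data known. Values in every sample were given for enzymes with a textbook role. Differences were given for bile acid P450s, for the 5 largest of each comparison, and for those with an unadjusted p under 0.05, with others as ranges. No list was tested as a set. Genes were matched by accession or symbol to RefSeq names (GRCr8), where all 34 matched under the same symbol. Marker lists of sinusoidal endothelium, stellate cells, cholangiocytes, granulocytes and bone marrow mesenchymal cells were also summed. Alternatives covered scaling, background correction, filters, outliers, the test, blocks and left-out samples.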

Additional observations from a re-analysis of the deposited data

How the results depend on the processing

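In 14 alternatives and in fits leaving out each sample, the count of P450 genes passing stayed at 0 with 3 exceptions. Cyp7a1 passed between MHs and controls with the 2 groups alone, giving 1 gene, and without BM-MC SHPC replicate 3. Cyp4a8 passed between BM-MC SHPCs and controls without control SHPC replicate 3. Without single samples the count higher thus ranged from 0 to 1 in both comparisons. The median difference between BM-MC SHPCs and controls fell to 0.016 with arrays scaled to their median and to 0.0070 with slide sets as a block. Between MHs and controls it was 0.065 with normexp correction, which also left out control SHPC replicate 2, and 0.17 without that sample alone. Between BM-MC SHPCs and MHs it was -0.23 with median scaling, -0.11 without scaling, -0.19 with slide sets as a block, and -0.11 to 0.077 without single samples.

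Of the 23 genes, 0 to 7 turned sign under an alternative between BM-MC SHPCs and controls, 0 to 3 between MHs and controls and 0 to 8 between BM-MC SHPCs and MHs. Leaving out single samples in turn, not counted in these ranges, turned 0 to 1, 0 to 6 and 0 to 5, with 6 between MHs and controls without MH replicate 1, and 5 between BM-MC SHPCs and MHs without either MH sample. Median scaling turned 6, 0 and 7 of them, slide sets as a block 7, 2 and 8, normexp correction 1, 3 and 1, quantile normalization 2, 1 and 1, and no scaling 0, 2 and 3. Among the differences given one by one, signs turned between BM-MC SHPCs and controls for Cyp27a1 (-0.090) and Cyp7b1 (-0.045) with median scaling, and for Cyp27a1 (-0.043), Cyp4a8 (-0.29) and Cyp8b1 (-0.36) with slide sets as a block. Among them they also turned for Cyp7b1 between MHs and controls without scaling (0.058), and between BM-MC SHPCs and MHs for Cyp7b1 with median scaling (-0.022) and for Cyp17a1 (-0.055) and Cyp4f17 (-0.0053) with slide sets as a block. Without single samples, Cyp7a1 ranged from -0.028 to 1.18 between BM-MC SHPCs and controls, Cyp7b1 from -0.14 to 0.078 between MHs and controls, and Cyp39a1 from -0.67 to 0.20 between BM-MC SHPCs and MHs. The causes were not tested. Median scaling moved the median of all probes to -0.17 for BM-MC SHPCs against controls and to -0.19 against MHs.

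Over the alternatives, 0 to 206 of all probes were higher and 0 to 7 lower in BM-MC SHPCs than in controls, 0 to 204 and 0 to 355 in MHs than in controls, and 0 to 114 and 0 to 16 in BM-MC SHPCs than in MHs. Leaving out single samples gave 0 to 490 and 0 to 40, 4 to 214 and 49 to 309, and 0 to 107 and 0 to 8. The 490 and 40 were without control SHPC replicate 3, the 214 and 309 without BM-MC SHPC replicate 3, and the 107 and 8 without BM-MC SHPC replicate 1. Deviations of same-numbered control and BM-MC SHPC samples correlated at 0.13, 0.078 and 0.17. Those of differently numbered samples of these groups correlated at -0.15 to 0.082. Same numbers thus leaned higher, but the correlations were weak, and the numbers were not taken as pairs. With the replicate number as a block, the medians of the P450 genes were 0.21, 0.21 and -0.060, no P450 call changed, and the calls over all probes were 0, 29 and 0 higher and 0, 130 and 0 lower. Control SHPC replicate 2 correlated best with another number. With 2 against 3 or 3 against 3 samples, 2-sided exact rank-sum tests cannot go below 0.2 or 0.1.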
